A study of Mus musculus with 12 samples.

Results

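Of 101744 mouse transcripts in the table, 42 were recovered by ribosome pulldown from sensory neurons and almost not at all from the matching input. A transcript was taken as a member where it had at least 30 counts, summed over the 3 samples of a group, in both the injured and the uninjured immunoprecipitate (IP), and at most 5 summed counts in both the injured and the uninjured input. The members were thus selected on their counts in all 4 groups, and their enrichment in IP over input is a description that was not tested. The members were 42 of the 2240 transcripts that met the IP limit, and the other 2198 are the transcripts they are set beside.

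The libraries came from dorsal root ganglia of mice labelled RPL22HA+/+;Advillin-Cre+. Every animal in all 4 groups carried both alleles, and the groups differ in the RNA fraction (IP or input) and in sciatic nerve injury. The 12 samples form 4 groups of 3, which are IP uninjured, IP injured, input uninjured and input injured. The sources used here give no age, no interval between injury and collection, no number of mice and nothing on pooling. In the RiboTag method, Cre recombinase replaces the end of the ribosomal protein gene Rpl22 with a copy that carries an HA tag, so that ribosomes of the Cre-expressing cells can be pulled down with an anti-HA antibody. Advillin is an actin-binding protein of peripheral sensory neurons, and its promoter directs Cre to those cells. RNA bound to the beads without a tagged ribosome can also enter such a pulldown, and the input is meant to hold the RNA of every cell type of the ganglion. Input is labelled as total RNA but has the same extraction text as the IP, so how the input RNA was prepared is uncertain.

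The table names transcripts only by Ensembl transcript identifiers, and 0 lines of the reference tables used here hold such an identifier. Gene names, RNA classes, sister isoforms in the input, sequences and the marker genes of neurons, glia and other ganglion cells were therefore not analysed here. Members are called below by their rank in summed IP counts, from rank 1 for the most abundant to rank 42. The 2 most abundant members of each direction of injury change are also given by identifier.

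Within a group the totals of the 3 samples were almost the same, with a range of 0.0374% to 0.449% of their mean. Summed over its samples, IP uninjured held 636012 counts and IP injured 571960, against 5056160 for input uninjured and 4754071 for input injured. Among the 2198 other transcripts the spread between the 3 samples, measured as a chi-square statistic, had a median of 1.17 times counting noise in IP uninjured and 1.19 times in IP injured, with 266 and 263 of them above the 5% level of counting noise. The members spread more, with medians of 2.23 and 2.11 times counting noise. The labels list the 3 as separate samples and do not say whether they came from separate animals. They were summed and counted as 1 sample, so no p-value is given, and the values of the 3 are used below only to see whether groups overlap and in fits that take them as replicates. Intervals are exact 95% counting intervals. They include no error but that of counting, which is too narrow for members whose 3 samples spread further, and reads amplified by PCR without molecular identifiers are not independent molecules.

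The input in which the members were nearly absent held 7.95 times as many estimated counts as the IP without injury and 8.31 times with it. The median member had a sum of 67.3 counts in uninjured and of 61.8 in injured IP. At the same share of the library, it would have had 535 counts in uninjured and 514 in injured input. With TMM scaling, which corrects library totals for differences in composition and lowers the IP-to-input ratio, the same median levels would correspond to 179 and 157 input counts. The least abundant member of each IP group, with 33.1 counts in uninjured and 30.9 in injured, would still correspond to 88.4 and 78.2 input counts after scaling.

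Of the 42 members, 27 had 0 counts in all 6 input samples. By counting error alone, a count of 0 allows up to 3 counts. This is 0.593 CPM (counts per 1000000 of the library) of the uninjured and 0.631 CPM of the injured input total. The estimated counts of these members spread further than that. In IP, 17 of the 42 had a 0 in a sample beside 10 or more counts in another of its group. A 0 in input therefore does not hold these RNAs under that level. The other 15 members had between them 17.1 estimated counts in uninjured and 29.4 in injured input. Only 3 members had input counts in both conditions, 5 had them in uninjured ganglia alone and 7 in injured ganglia alone. Out of 252 input values of members, 25 were above 0, and the largest was 5 counts. In comparison, the other 2198 transcripts had a median of 145 counts in uninjured and 126 in injured input, and 6 and 25 of them were at 0 there.

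**Figure D1:**
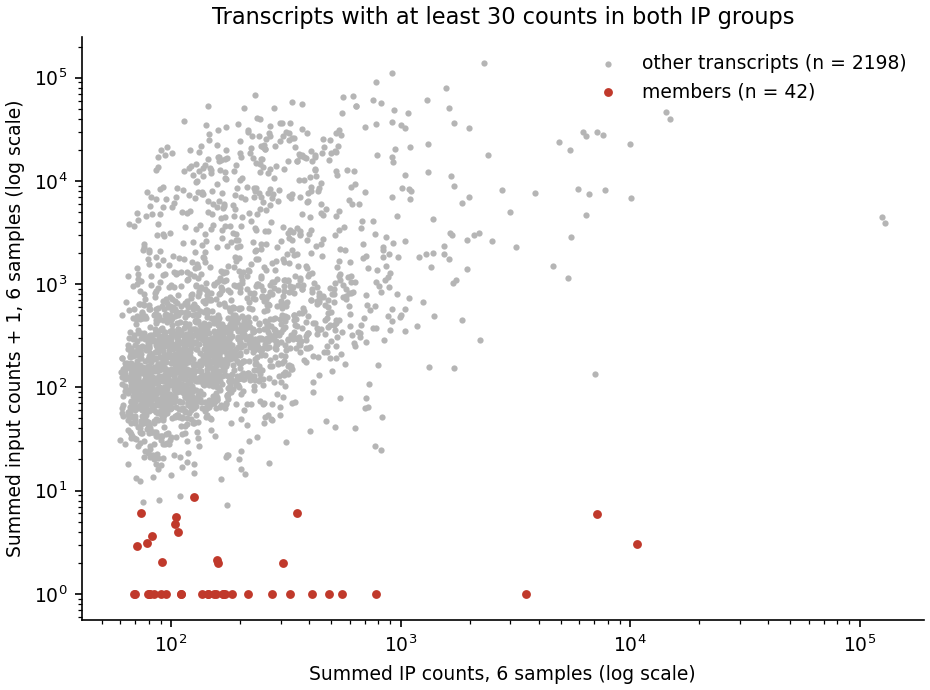
Summed counts in the 6 input samples plus 1 (y axis, log scale) against summed counts in the 6 IP samples (x axis, log scale) for the 2240 transcripts with at least 30 counts in both IP groups. Each point is 1 transcript; the 42 members (red) lie along the bottom by the rule that chose them, with 27 at 0 input counts, and 3 of them lie far to the right of the rest.

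Some transcripts lay close to the limits of the rule. Just inside the input limit lay 6 members, whose higher input sum was 3.77 to 5 counts, and just outside lay 10 transcripts with 5.08 to 9.03 counts. On the IP side, the lower IP sum was 30.9 to 35 counts in 9 members, and 25 to 29.6 counts in 13 transcripts that were left out. Raising the input limit from 5 to 10, 20 and 50 counts would take in 52, 105 and 381 of the 2240 transcripts.

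Most of the members were scarce in IP, and 3 of them held most of the members' counts. In each IP group 29 of the 42 had fewer than 100 summed counts. Such levels were not particular to the members. Their medians of 67.3 counts in uninjured and 61.8 in injured IP lay near the 72 and 65 of the other 2198 transcripts. All 42 together made up 1.35% of IP uninjured and 3.50% of IP injured. By sample these shares were 1.38%, 1.34% and 1.31% for uninjured IP, and 3.51%, 3.49% and 3.51% for injured IP. The shares of the 2 conditions did not overlap. The 3 most abundant members held 60.9% of the members' counts without injury and 80.9% with it. Without them the members made up 0.527% of IP uninjured and 0.668% of IP injured, so most of the difference in share lay in these 3 transcripts.

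The transcript of rank 1, ENSMUST00000196608.2, was the 15th most abundant of all transcripts in IP uninjured and the 5th in IP injured. Its 3 samples held 1067, 987 and 957 counts in uninjured IP and 2581, 2547 and 2565 in injured IP. Its input held 0 counts in uninjured ganglia and 1 count in each of a pair of injured samples. The injured IP samples thus lay far above the uninjured ones without overlap. After scaling the transcript was 2.67-fold higher in injured IP (2.56 to 2.78).

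The transcript of rank 2, ENSMUST00000109262.8, had 460, 464 and 505 counts in uninjured IP and 1932, 1934 and 1922 in injured IP. Its only input counts were 4.88 in 1 uninjured sample. It was 4.23-fold higher in injured IP (3.99 to 4.48), again with no overlap between the groups. The member of rank 3 had 0 counts in all 6 input samples. It held 270, 260 and 244 counts in uninjured IP and 897, 939 and 897 in injured IP, which was 3.69-fold higher (3.40 to 3.99). Within each IP group the highest sample of each of these 3 transcripts was at most 1.12 times the lowest.

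Injured and uninjured IP were compared to ask how the ribosome-associated RNA of these members differed after nerve injury. Transcripts entered the comparison if either group reached 10 CPM on the scaled totals. A call of higher or lower needed a difference of at least 2-fold, a counting interval that did not include equality, and 3 samples of each group that did not overlap. All 42 members were compared. Of these, 6 (14.3%) were higher after injury and 2 (4.76%) were lower. Among all 8014 transcripts compared, 11.8% were higher and 10.5% lower. Among the other 2198 transcripts with the same IP minimum, 7.83% were higher and 8.19% lower. The members' shares rest on only 6 and 2 transcripts, so no excess or deficit of changed members is read from them. The rule also hides any transcript that fell below 30 counts in either IP group.

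Besides the 3 described above, the higher members were those of ranks 4, 7 and 10. Rank 4 had 71.9, 60.5 and 58.0 counts in uninjured IP and 197, 197 and 197 in injured IP, and was 3.24-fold higher (2.75 to 3.85). Rank 10 had 11.2, 18.8 and 19.9 counts in uninjured IP and 90.8, 85.2 and 81.4 in injured IP, and was 5.40-fold higher (3.95 to 7.42). In both transcripts every injured sample lay above every uninjured one by more than the range within a group.

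The member of rank 7 had the highest fold, 5.54 (4.24 to 7.34), with 95.6, 137 and 112.4 counts in injured IP. Its uninjured samples held 28.2, 0 and 36.8 counts, a spread well beyond counting noise. When the 3 samples were taken as replicates, edgeR's quasi-likelihood test, at a Benjamini-Hochberg adjusted p under 0.05, called the other 5 higher members and not this one. Over all 9959 transcripts tested, edgeR called 7.11% higher and 5.43% lower. With the replicate number as a block it called 5.38% higher and 3.77% lower, and DESeq2 called 7.76% and 4.91% of the 9918 with an adjusted p.

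The lower members were those of ranks 5 and 16. ENSMUST00000088614.13, of rank 5, had 137, 149 and 95.4 counts in uninjured IP and 57.7, 63.5 and 51.7 in injured IP, and 0 in every input sample. Its uninjured samples spread beyond counting noise, with a chi-square statistic of 12.6, so its counting interval is too narrow. The groups did not overlap, and the transcript was 2.11-fold higher in uninjured than in injured IP (1.76 to 2.54). This lies close to the 2-fold limit, and its log2 change of -1.08 became -0.99 with library totals alone, -0.91 without the samples numbered 1 and -0.92 without those numbered 2, each short of the limit.

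ENSMUST00000229877.2, of rank 16, had 52.0, 40.7 and 43.0 counts in uninjured IP and 0, 32.2 and 0 in injured IP, with 0 counts in the input. It was 4.04-fold higher in uninjured IP (2.75 to 6.18), but all of its injured counts came from 1 sample. Its log2 change of -2.01 became -1.20 without the samples numbered 1 and -1.46 without those numbered 3. Without the samples numbered 2 it became -4.82, which rests on a floor of 3 counts. With the 3 samples as replicates edgeR did not call it. Without the samples numbered 3, 7 members in place of 2 were counted as lower. With fewer samples the condition of no overlap is easier to meet, and the share over all transcripts is not given for this setting.

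**Figure D2:**
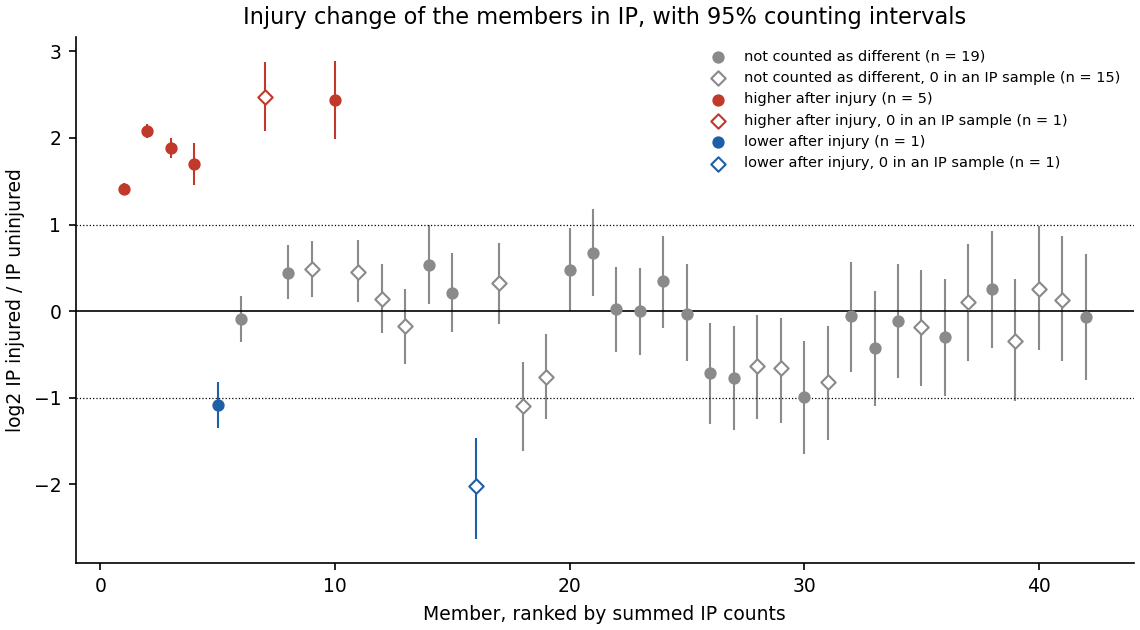
Log2 ratio of injured to uninjured IP after scaling (y axis) for the 42 members by rank in summed IP counts (x axis), with 95% counting intervals as bars and dotted lines at 2-fold. Red marks the 6 higher and blue the 2 lower members, grey the 34 others, and open diamonds the 17 members with a 0 in at least 1 IP sample; 4 of the 6 higher members have ranks 1 to 4.

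The remaining 34 members were not counted as different. Their log2 changes ran from -1.09 to 0.67, and 24 of them lay within 0.5 of 0 in either direction. For 23 of the 34 the whole counting interval lay within 2-fold. In 14 of them the interval did not include equality, with 6 on the higher and 8 on the lower side, but the change was under 2-fold or the samples overlapped. The median log2 change of the 42 members was 0.01, with 21 above and 21 below 0. The median was -0.05 over all 8014 compared transcripts and -0.06 over the other 2198. Together the 34 members made up 0.398% of IP uninjured and 0.424% of IP injured, while the 6 higher ones went from 0.868% to 3.04%. The direction of this contrast is fixed by the call that sorted the members.

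The members differed from the other IP transcripts in how their counts fell on the 3 samples of a group. The rule on sums did not use this spread. It did choose transcripts near 0 in input by the same kind of estimated counts, so the trait may not be independent of the choice. This was not tested. Of the 42 members, 17 (40.5%) had 0 counts in at least 1 of the 6 IP samples, against 146 of the other 2198 (6.64%). This was so in 12 members in uninjured IP and in 12 in injured IP, with 7 of them in both. Among transcripts under 200 summed IP counts it was 13 of 30 members (43.3%) against 6.93% of the others. Among those with at least 200 it was 4 of 12 members (33.3%) against 6.06%. Each such transcript had at least 30 summed counts in the group that held the 0.

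In 7 members all counts of an IP group stood in 1 sample, and in 2 members, those of ranks 17 and 35, this was so in both groups. Rank 17 had 72.9, 0 and 0 counts in uninjured IP and 0, 0 and 87.1 in injured IP. Rank 35 had 0, 0 and 44 counts in uninjured IP and 37, 0 and 0 in injured IP. Rank 12 had 0, 62 and 43 counts in uninjured IP and 111, 0 and 0 in injured IP. In these 3 members the counts stood under different sample numbers in the conditions, and their log2 changes over the group sums were 0.32, -0.19 and 0.14. Some other members with a 0 held counts under the same number in both conditions. Samples of the same number were not taken as pairs, so nothing is read from the numbers.

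**Figure D3:**
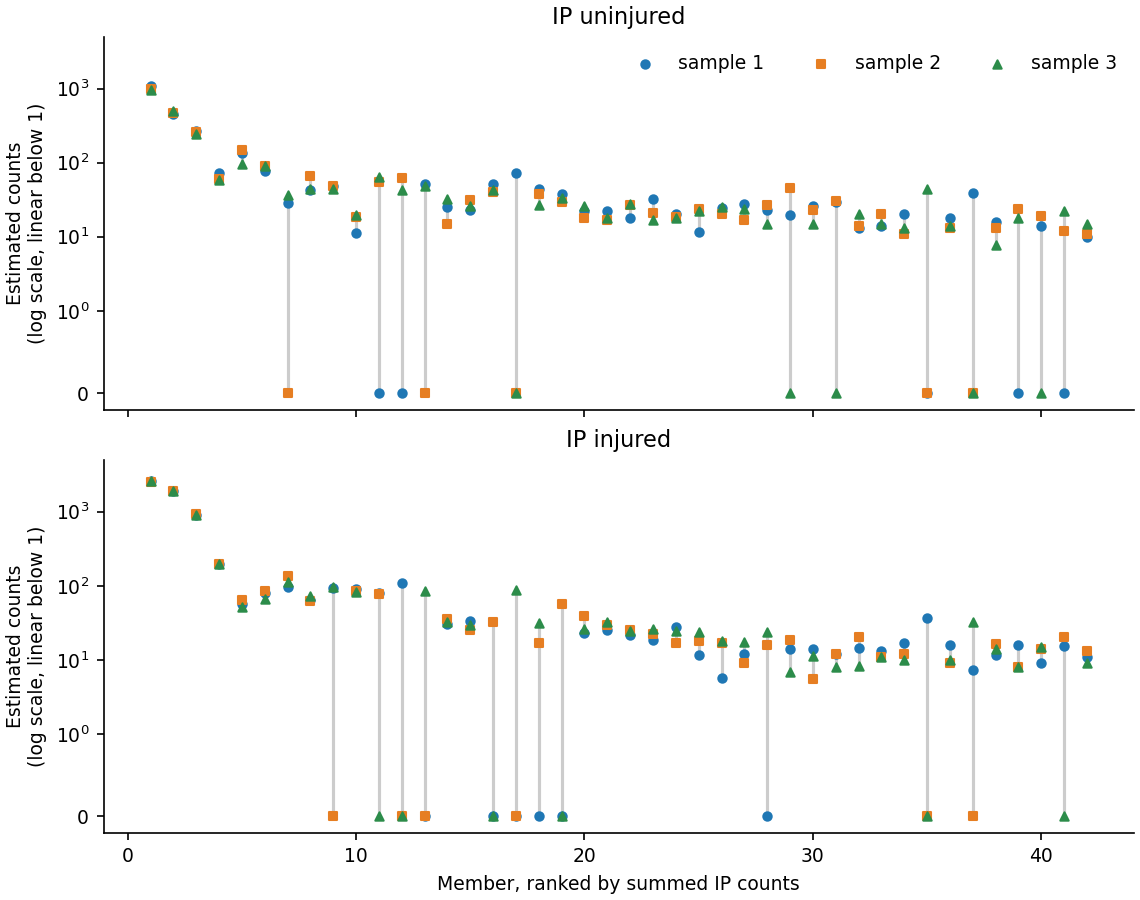
Estimated counts (y axis, log scale, linear below 1) of each of the 42 members, ranked by summed IP counts (x axis), in the 3 samples of IP uninjured (top) and IP injured (bottom). Grey lines join the lowest and highest of the 3 samples; in 12 members of each group a line runs down to 0, while ranks 1 to 6 have no 0 in either group.

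The spread between the 3 samples exceeded the 5% level of counting noise in 16 members in uninjured IP and 14 in injured IP. Among the other transcripts this was so for 266 and 263 of the 2198. Counts that are not whole arise where a read is shared among several transcripts. Of the members' IP values above 0, 59.4% were not whole, against 32.7% in the other 2198 transcripts. Members with a 0 in an IP sample made up 7 of the 15 with input counts and 10 of the 27 without. Of the 8 members counted as different after injury, 2 had such a 0, those of ranks 7 and 16. Whether reads moved between similar transcripts in the quantification was not tested.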

How the data were processed

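RNA of the anti-HA pulldown and of the input was measured in 12 samples with nanopore PCR-cDNA libraries, per the labels' protocols. The authors deposited estimated counts per Ensembl transcript, not scaled to depth. Salmon and minimap2 are named in the submitters' processing notes, with the builds GRCm39 and mm39. The sources used here give no versions, settings or annotation.

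Estimated counts were summed over the 3 samples of a group, in place of an edgeR test on replicates, because earlier results on these data had shown spread close to counting noise. Sums were rounded to whole numbers for intervals. TMM factors were computed with edgeR 4.0.16 on these sums, over the 9959 transcripts kept by filterByExpr. Members, limits and the order of naming were chosen with earlier results of these data known, so nothing here is independent of them. The transcripts named by identifier are the 2 of each direction with the highest summed IP counts. Members named by rank alone, the count of members with a 0 in an IP sample and the values of ranks 12, 17 and 35 were chosen after their values were seen. A group at 0 was set to a floor of 3 counts.

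Alternatives were library totals, other limits, left-out samples, and edgeR and DESeq2 1.42.0 at an adjusted p of 0.05, with 3 samples as replicates and counts rounded. Of the 42 members, 40 passed the filter of those fits, and DESeq2 gave an adjusted p for 38 of them.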

Additional observations from a re-analysis of the deposited data

How the results depend on the processing

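With the 3 samples as replicates, edgeR, edgeR with the replicate block and DESeq2 each called 5 members higher and 1 lower, all among those reported. Among the members the replicate block changed no call of edgeR, while over all transcripts tested it lowered the shares called. The replicate numbers were not taken as pairs, since across 448 transcripts same-numbered IP samples had r of -0.33 to -0.08 and differently numbered ones -0.23 to 0.34. What samples of 1 number share is not stated in the labels. The 2 lower members became 1 with library totals alone, with at least 60 counts in both IP groups, and among members with no 0 in an IP sample. With a 4-fold limit 3 were higher and 1 lower. With 0 input counts required 3 were higher, and 3 without the 3 most abundant members. Leaving out 1 sample of each group gave 7 to 8 higher and 2 to 7 lower members. With fewer samples the condition of no overlap is easier to meet. The counts at these other limits and selections come without shares over all transcripts, so no excess or deficit of changed members is read from them.

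The number of members was 18 with at least 60 IP counts and 27 with 0 input counts. Leaving out 1 sample of each group, with limits scaled down, gave 42 to 52 members, of which 31 to 35 were among the 42. The median log2 change was 0.032 to 0.20 with 1 sample left out and 0.45 with at least 60 IP counts. The members' share of IP uninjured was 1.13% with at least 60 IP counts, 0.515% with 0 input counts and 0.527% without the 3 most abundant, and of IP injured 3.29%, 0.978% and 0.668%. Selections without zeros in IP and without the 3 most abundant members were chosen after seeing the data. The cause of these shifts was not tested. IP depth limits the scarcer members.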

Other observations

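The rule left out 87 transcripts that were as scarce in both inputs but passed the IP limit in 1 condition. Of these, 62 had at least 30 counts in uninjured IP alone and 25 in injured IP alone. Among the 62, the median was 40.0 counts in uninjured IP, the highest was 128, and 24 had 0 counts in injured IP. Among the 25, the median was 40.7 counts in injured IP, the highest was 126, and 6 had 0 counts in uninjured IP. By the 2-fold rule 23 of the 62 were lower after injury and 9 of the 25 higher, a direction that their selection fixes. Among all 8014 transcripts compared, 10.5% were lower and 11.8% higher.

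Another 45 transcripts with at least 30 counts in both IP groups were at or under 5 input counts in 1 condition alone. In 34 of them the low input was the injured one, with 25 at 0, and in 11 it was the uninjured one, with 6 at 0. Their counts in the other input ran from 5.08 to 504, with a median of 25.8. Injured input held fewer counts in all than uninjured input, and whether this plays a part was not tested.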
